A study of Arabidopsis thaliana with 28 samples.

Results

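RNA-directed DNA methylation (RdDM) is the plant pathway that places new methyl groups on cytosines at sites named by small RNAs, and 10 of its genes were followed here through wild-type (WT) and *ddm1* seedlings of *Arabidopsis thaliana*. They were taken by name for their role in the pathway, by a rule that used no measured value but was set with earlier results of these data known: *NRPD1* (AT1G63020), *CLSY1* (AT3G42670), *RDR2* (AT4G11130), *DCL3* (AT3G43920), *AGO4* (AT2G27040), *AGO6* (AT2G32940), *NRPE1* (AT2G40030), *DRD1* (AT2G16390), *SUVH9* (AT4G13460) and *DRM2* (AT5G14620). All 10 were found among the 28437 genes of the expression table and all 10 were among the 22329 genes with at least 1 RPM (reads scaled to the library total) in at least 3 libraries, which were tested.

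In this pathway RNA polymerase IV, with NRPD1 as its largest subunit, makes short transcripts that RDR2 copies into double-stranded RNA and DCL3 dices into small interfering RNAs. The small RNAs are carried by AGO4 or AGO6 to transcripts of RNA polymerase V, whose largest subunit is NRPE1, and DRM2 then methylates the DNA. DDM1 is a chromatin remodeler that gives DNA methyltransferases access to heterochromatin. It works largely apart from RdDM, and its loss is known for reduced DNA methylation and for transcription of transposable elements.

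The study asked how DDM1 bears on hybrid vigor. Its RNA set held 24 libraries of whole 2-week-old seedlings, with 3 replicates for each of 8 genotypes. These were the parents WT-Col and WT-C24 (both accessions carrying functional *DDM1*), the parents *ddm1*-Col and *ddm1*-C24, the WT hybrids WT-ColxC24 and WT-C24xCol, and the hybrids *ddm1*-ColxC24 and *ddm1*-C24xCol, which come from a cross of both mutant parents. The mother is named first. The 6 hybrid libraries of a background, both directions of the cross pooled, are called WT-F1 or *ddm1*-F1. Which of the study's *ddm1* alleles the RNA came from is not given in the sources used here. The 4 bisulfite samples were not analysed here, so no methylation value stands beside these transcripts. The labels do not say whether replicates came from separate sowings, so p-values measure only the spread between these libraries, which may be technical.

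*DDM1* itself (AT5G66750) checks the labels only in part. It was at 6.3, 9.5 and 12.6 RPM in WT-Col and at 2.6, 1.7 and 2.6 RPM in *ddm1*-Col (replicates 1, 2 and 3), a difference of -1.80 on the log2 scale (SE 0.31, adjusted p = 0.0129, limma). In the libraries labelled *ddm1*-C24 it was at 6.7, 14.3 and 13.2 RPM against 6.0, 7.0 and 12.4 RPM in WT-C24 (difference 0.41, SE 0.40, adjusted p = 0.777), so the transcript does not separate these groups. In the hybrids it was at 5.4 to 12.1 RPM in WT-F1 and 4.1 to 8.6 RPM in *ddm1*-F1, which overlapped (difference -0.35, SE 0.25, adjusted p = 0.744). With the replicate number as a block in the fit, this difference passed the threshold of 0.05 (SE 0.10, adjusted p = 0.0245, and 0.0411 with RPM rescaled by median ratios as well). The number of genes at 0 separates the C24 parents: 2501 to 3975 in the libraries labelled *ddm1*-C24 against 4596 to 6076 in WT-C24. Shoot markers were present in all 24 libraries (summed level 18173.1 to 29712.9 RPM), and most of that sum is *RBCS1A* (10368 to 16419.6 RPM), a subunit of Rubisco. *LHCB1.1*, which encodes a light-harvesting protein, was at 55.5 to 167.1 RPM in the 8 libraries of replicate number 3 and in *ddm1*-C24 replicate 2, against 1725.2 to 4978.5 RPM in the other 15. *LHCB2.1* split the same way, with 24.3 to 63.6 RPM against 929.2 to 3185.7 RPM, and the part this plays in the results was not tested. The depth of the libraries is unknown, and in whole seedlings fewer cells of a type and less RNA per cell cannot be told apart. C24 reads were aligned to the Col genome, and the part this plays in differences between the accessions was not tested.

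The 10 genes together made up 170.2 to 224 RPM of a library. Per kilobase of exon, *SUVH9* had the highest mean level over the 8 genotypes, 22.7 RPM per kb, followed by *AGO4* with 15.6 and *DRM2* with 5.25 RPM per kb. *CLSY1* (3.47), *DRD1* (2.94), *NRPE1* (2.57), *RDR2* (2.27) and *DCL3* (2.25) lay close together, and *NRPD1* (1.09) and *AGO6* (0.891 RPM per kb) were lowest. In every one of the 10 genes each genotype overlapped its neighbour in the order of mean levels, so no step between neighbouring genotypes exceeded the spread of the libraries. *DCL3* and *DRD1* each overlap a gene on the opposite strand (AT3G43930 and AT2G16400); the strand setting of the counting is not given in the sources used here, and their values are uncertain to that extent.

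**Figure D1:**
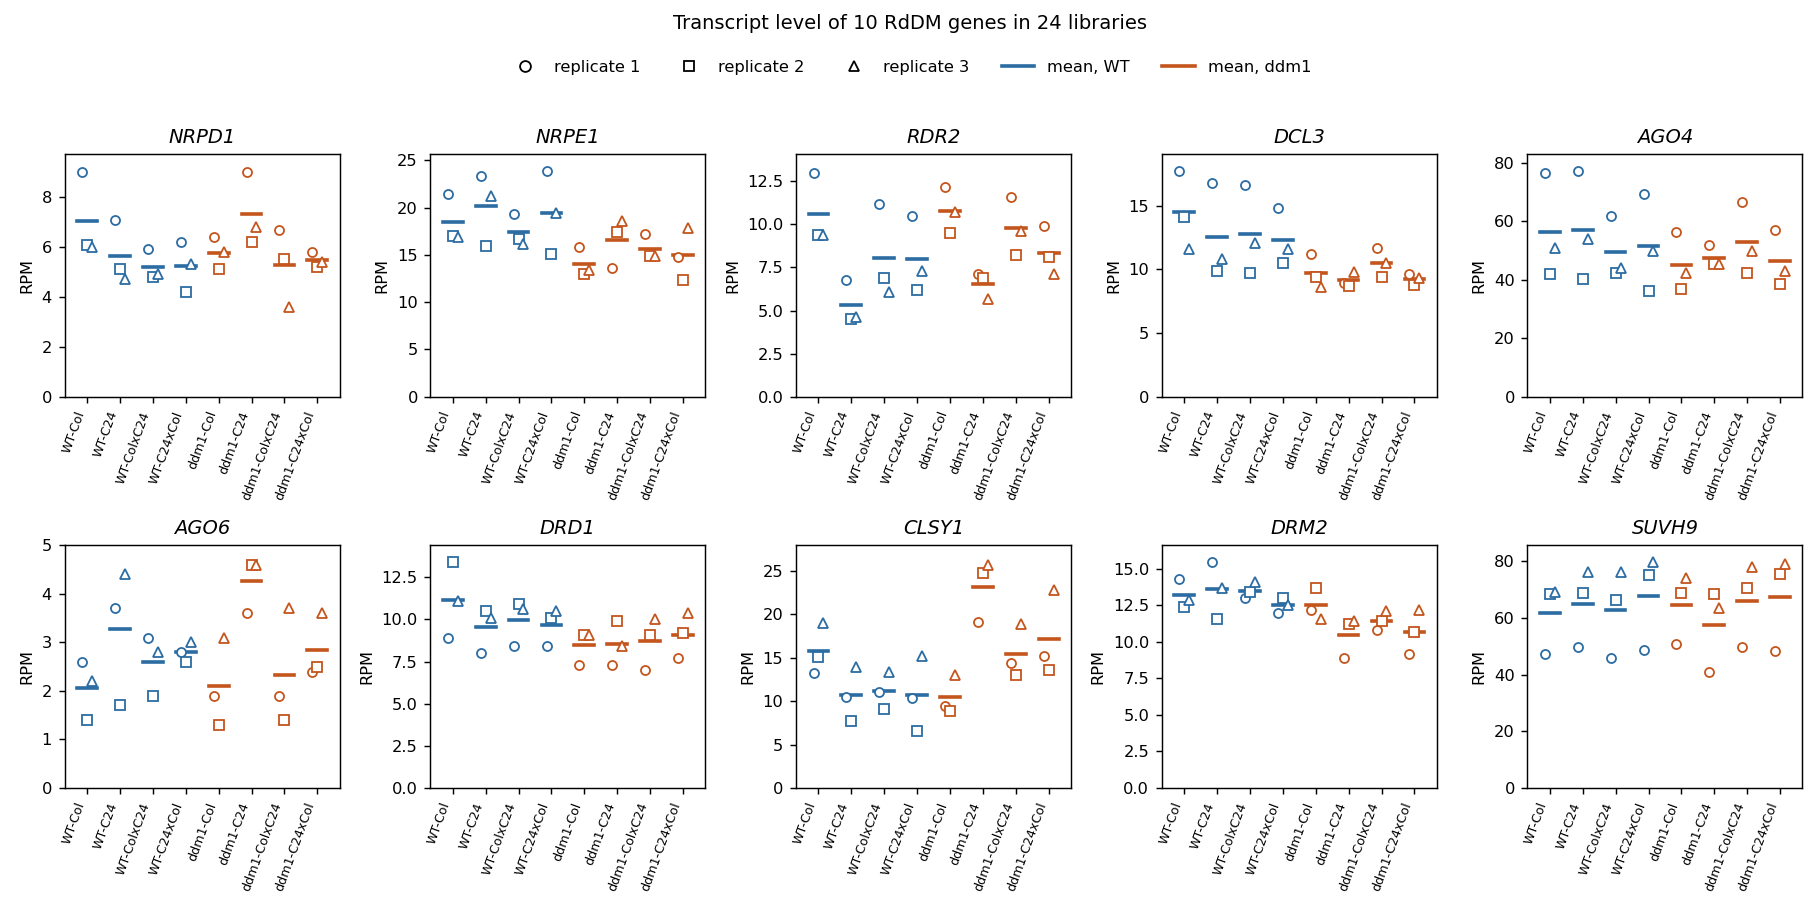
Transcript level (RPM, linear axis from 0) of the 10 genes in each library, with 1 panel per gene. Symbols are the 3 replicates, bars are means, blue is WT and orange is *ddm1*; *CLSY1* is highest in *ddm1*-C24 (19.1 to 25.7 RPM), *RDR2* is lowest in WT-C24 (4.5 to 6.8 RPM), and replicate 1 of *SUVH9* is the lowest of its genotype throughout.

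*CLSY1* encodes a chromatin remodeler of the SNF2 family that helps to bring RNA polymerase IV to its sites. The main fit took each comparison on all its own libraries, with RPM as deposited and without the replicate number as a block. In that fit *CLSY1* gave the only calls of the 10 genes. The effect of *ddm1* on it differed between the accessions, and its level differed between the *ddm1* parents. The gene lies on chromosome 3 at 14755798-14760629 (TAIR10.1, minus strand).

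In WT-Col *CLSY1* was at 13.2, 15.1 and 19.0 RPM and in *ddm1*-Col at 9.5, 8.9 and 13.0 RPM (replicates 1, 2 and 3). All 3 mutant libraries lay below all 3 WT libraries, although the highest mutant and the lowest WT value were close. In WT-C24 it was at 10.5, 7.7 and 13.9 RPM and in the libraries labelled *ddm1*-C24 at 19.1, 24.8 and 25.7 RPM. Here the mutant libraries were all above the WT libraries, without overlap.

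The difference between *ddm1* and WT was -0.57 in Col (log2(RPM + 0.5) scale, SE 0.24, adjusted p = 0.458) and 1.11 in C24 (SE 0.26, adjusted p = 0.0587), neither past the threshold of 0.05 in limma with Benjamini-Hochberg adjustment. The test of the difference itself, the effect in C24 minus that in Col over the 12 parental libraries, gave 1.68 (SE 0.35, adjusted p = 0.0151). *CLSY1* was thus 1 gene called of the 10, where 5.06% of all 22329 tested genes were called. Without *ddm1*-C24 replicate 2 the value was 1.63 and the adjusted p 0.05, which just missed the threshold, and with any other single library left out it stayed between 1.47 and 1.88 and was called.

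Replicate numbers paired the libraries, so the same tests were run with the replicate number as a block. In that fit the fall of *CLSY1* in *ddm1*-Col passed (adjusted p = 0.0108), the rise in C24 stood at the threshold (adjusted p = 0.0503), and the difference between the accessions kept its call (adjusted p = 0.000415). With the block and RPM rescaled by median ratios, which moves the median of all genes in the Col comparison from -0.10 to 0.02, the adjusted p values were 0.027 in Col, 0.0262 in C24 and 0.000222 for their difference. Replicate 3 of *CLSY1* was the highest of its genotype in 8 of 8 genotypes, and *ddm1*-C24 replicate 2 was more like number 3 than number 2. In the blocked fit without that library the rise in C24 was 0.85 and did not pass (adjusted p = 0.0622). The difference between the accessions was 1.52 there and kept its call (adjusted p = 0.000581).

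In the hybrids *CLSY1* was higher with *ddm1* in both crosses, a difference that passed with the block. It was at 11.1, 9.1 and 13.4 RPM in WT-ColxC24 and at 14.4, 13.0 and 18.9 RPM in *ddm1*-ColxC24. In the reciprocal cross it was at 10.4, 6.6 and 15.2 RPM in WT-C24xCol and at 15.2, 13.6 and 22.8 RPM in *ddm1*-C24xCol. Each mutant library was above the WT library of its number and cross, and the ranges of WT-F1 and *ddm1*-F1 overlapped. The difference was 0.57 (SE 0.20, adjusted p = 0.121), and with the block it passed (SE 0.09, adjusted p = 0.000183).

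Between the parents *CLSY1* was 2.17-fold higher in *ddm1*-C24 than in *ddm1*-Col (difference 1.12, SE 0.23, adjusted p = 0.0199), the only member called of the 10, where 13.3% of all tested genes were called. This call was lost without *ddm1*-Col replicate 1 or 2 or without *ddm1*-C24 replicate 2 or 3 (values 1.02 to 1.07), and it held with the block (adjusted p = 0.00202). In WT the difference between C24 and Col was -0.56 (SE 0.28, adjusted p = 0.564).

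Markers of dividing cells rose with *CLSY1* in C24 and changed less in Col. Their list held 10 genes of the cell cycle and DNA replication, none at 0 in any library. All 10 had a higher mean in *ddm1*-C24 than in WT-C24, with a summed level of 171.6 to 216.7 RPM against 91.9 to 150.2 RPM, and the log2 ratio of the mean sums was 0.73. In Col 2 of 10 had a higher mean in *ddm1* and 7 a lower one. The sums overlapped there, 111.1 to 182.2 against 133.6 to 177.7 RPM, with a log2 ratio of -0.12. In the hybrids 8 of 10 were higher and 2 lower with *ddm1* in ColxC24 (log2 ratio 0.12). In C24xCol 10 of 10 were higher (0.37), and the sums overlapped in both crosses. Between the accessions all 10 were lower in WT-C24 than in WT-Col (-0.3) and higher in *ddm1*-C24 than in *ddm1*-Col (0.55). Over the 24 libraries the log2 level of *CLSY1* and that of the sum had a Pearson r of 0.893, and 0.859 after the mean of each replicate number was removed, a description of libraries that share genotypes and replicate numbers. The part of dividing cells in the *CLSY1* result was not tested.

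**Figure D2:**
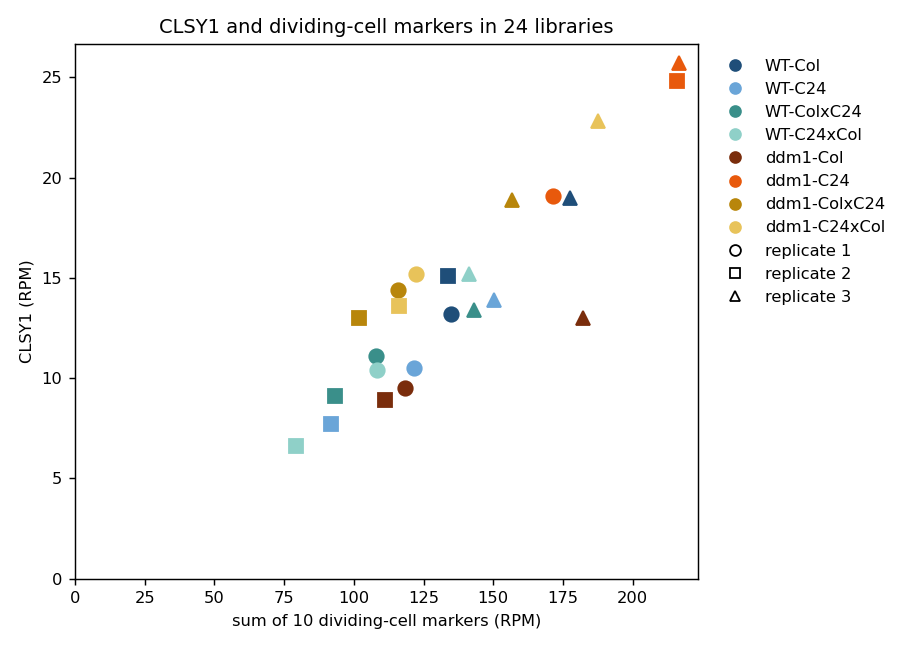
*CLSY1* (RPM, vertical axis) against the summed level of 10 dividing-cell markers (RPM, horizontal axis) in the 24 libraries, both axes from 0. Colors are genotypes and symbols are replicate numbers; the 3 libraries of *ddm1*-C24 lie at 171.6 to 216.7 RPM of markers and 19.1 to 25.7 RPM of *CLSY1*.

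*CLSY1* lies among silent elements. Within 100 kb of its start on either side the table holds 37 other loci, and 30 of them (81.1%) are annotated as pseudogenes, a class that in this annotation includes transposable element genes. Over the whole table the share is 10.7%. Of the 20 neighbours that were tested, 14 rose in *ddm1*-Col and 13 in *ddm1*-C24, and 0 fell in either. Over all 22329 tested genes 1746 rose in *ddm1*-Col and 1922 in *ddm1*-C24. Among those that rose, chosen after their values were seen, the pseudogene AT3G42650 went from a mean of 0.03 RPM in WT-Col to 919.5 RPM in *ddm1*-Col, and AT3G42712 from 0 to 24.4 RPM between WT-C24 and *ddm1*-C24. Not every pseudogene there moved in C24: AT3G42719 differed by 0.00 and AT3G42658 by 0.05 on the log2 scale. Such elements have near-identical copies, and their values are uncertain. The nearest protein-coding gene, AT3G42660, went from a mean of 12.9 to 20.8 RPM in C24 (difference 0.70, adjusted p = 0.189) and from 17.8 to 16.8 RPM in Col (difference -0.10, adjusted p = 1). *DCL3*, on the same chromosome at 15753387-15760859, had 12 pseudogenes among 36 neighbours, and 11 of 23 tested rose in *ddm1*-Col.

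**Figure D3:**
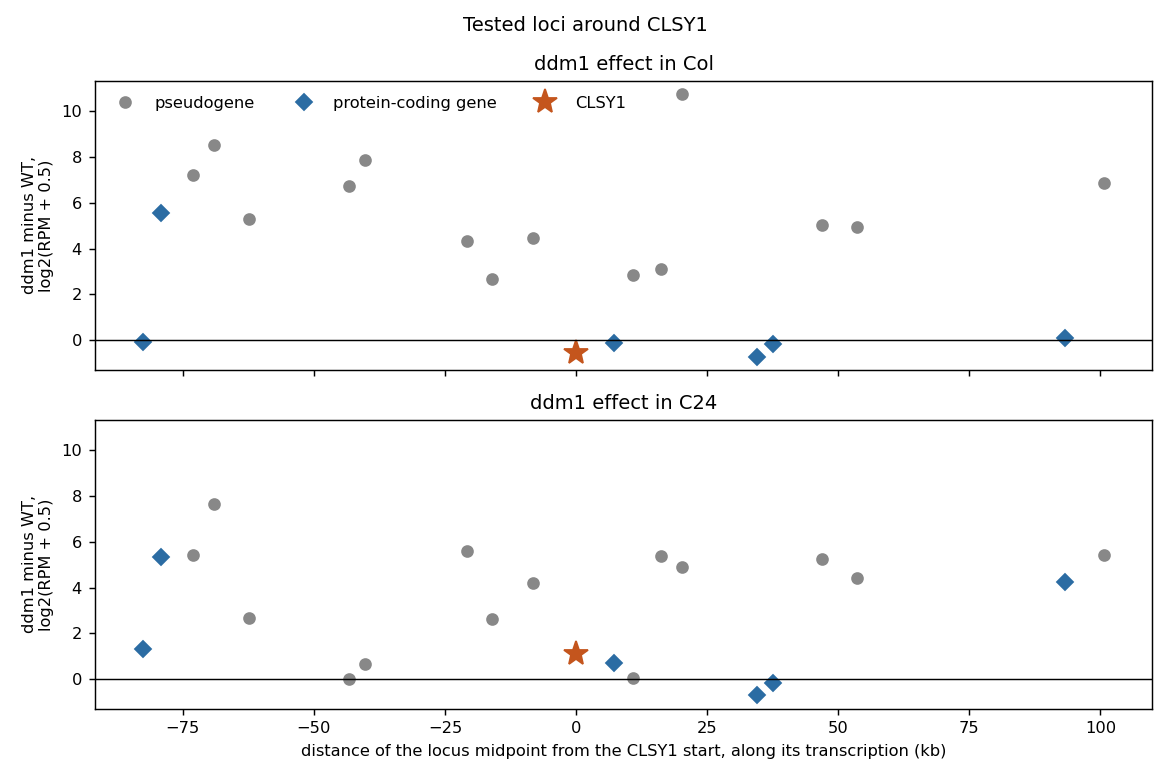
Difference between *ddm1* and WT (log2(RPM + 0.5)) of the tested loci within 100 kb of the *CLSY1* start, plotted against distance in kb along its direction of transcription, in Col (upper panel) and C24 (lower panel). Gray points are pseudogenes, blue diamonds are protein-coding genes and the star is *CLSY1*, at -0.57 in Col and 1.11 in C24.

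*NRPD1*, the largest subunit of RNA polymerase IV, was at 9.0, 6.1 and 6.0 RPM in WT-Col, 6.4, 5.1 and 5.8 RPM in *ddm1*-Col, 7.1, 5.1 and 4.7 RPM in WT-C24 and 9.0, 6.2 and 6.8 RPM in *ddm1*-C24. Each *ddm1* library was below its WT number in Col and above it in C24, and the ranges overlapped in both accessions. The effect of *ddm1* in C24 minus that in Col was 0.60 (SE 0.33, adjusted p = 0.628). With the block it passed by a narrow margin (SE 0.18, adjusted p = 0.0487), where 12.5% of all genes were called, and not when RPM was also rescaled (adjusted p = 0.0929) or when *ddm1*-C24 replicate 2 was left out of the blocked fit.

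*RDR2*, the RNA-dependent RNA polymerase that works with polymerase IV, differed between the accessions and little with *ddm1*. It was at 13.0, 9.4 and 9.4 RPM in WT-Col and at 6.8, 4.5 and 4.6 RPM in WT-C24, so every WT-C24 library was below every WT-Col library. In *ddm1*-Col it was at 12.2, 9.5 and 10.7 RPM and in *ddm1*-C24 at 7.1, 6.9 and 5.7 RPM, again without overlap. The hybrids lay between, with means of 8.07 and 8.00 RPM in WT-ColxC24 and WT-C24xCol and 9.80 and 8.37 RPM in their *ddm1* counterparts.

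*RDR2* lies on chromosome 4 at 6780449-6784632 (TAIR10.1, plus strand). The 250 bases before its annotated start are shown because it is the member that differed between the WT parents with the block. They were read from the RefSeq TAIR10.1 sequence of Col, chr4:6780199-6780448 (plus strand), 5′ to 3′, with every CG dinucleotide in capitals.
RDR2: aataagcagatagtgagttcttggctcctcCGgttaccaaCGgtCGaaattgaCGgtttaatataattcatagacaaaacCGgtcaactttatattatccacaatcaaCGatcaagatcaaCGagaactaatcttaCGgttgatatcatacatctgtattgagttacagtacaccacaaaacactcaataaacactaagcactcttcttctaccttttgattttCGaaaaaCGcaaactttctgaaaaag
CG reads the same on both strands and is a site that maintenance methylation copies. RdDM also methylates cytosines in other contexts, which are not marked here. The window holds 10 CG dinucleotides, where the median of 27443 protein-coding genes is 5, and 12.5% of all those windows hold 10 or more. Whether any of these cytosines is methylated was not measured here.

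The difference between C24 and Col was -0.94 in WT (SE 0.26, adjusted p = 0.188), a 1.92-fold lower level, and -0.68 in *ddm1* (SE 0.21, adjusted p = 0.0882). In WT 0 of the 10 genes were called where 3.80% of all tested genes were; 1 of the 10, *RDR2*, had an unadjusted p under 0.05. With the block *RDR2* passed in WT (adjusted p = 0.0387, 6.82% of all genes called) and in *ddm1* (adjusted p = 0.02, 32.0% of all genes called). In one fit of all 24 libraries without the block it passed in WT (adjusted p = 0.0158) and not in *ddm1* (adjusted p = 0.0547).

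*DCL3*, the Dicer that cuts the precursors, was lower in *ddm1* in both accessions and in the hybrids, short of the threshold without the block. It was at 17.7, 14.1 and 11.6 RPM in WT-Col and 11.2, 9.4 and 8.6 RPM in *ddm1*-Col, where every mutant library was below every WT library. In C24 it was at 16.8, 9.9 and 10.8 RPM in WT and 8.9, 8.7 and 9.8 RPM in *ddm1*, where the ranges did not overlap, with 0.1 RPM between them. The difference was -0.54 in Col (SE 0.23, adjusted p = 0.49), -0.40 in C24 (SE 0.25, adjusted p = 0.554) and -0.31 in F1 (SE 0.14, adjusted p = 0.321). With the block it passed in Col (adjusted p = 0.0123) and in F1 (adjusted p = 0.0135), also with RPM rescaled (0.0255 and 0.0301), and not in C24.

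*AGO4*, the main Argonaute of the pathway, was the second most abundant gene per kilobase, with 36.1 to 77.1 RPM over the 24 libraries. Its level followed the replicate number: replicate 1 was the highest in 8 of 8 genotypes, with a mean of 64.6 RPM against 40.5 for replicate 2 and 47.4 for replicate 3. The *ddm1* effect in Col was -0.30 (SE 0.28, adjusted p = 1). With the block it passed (adjusted p = 0.0354), and not with RPM also rescaled.

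*AGO6*, a relative of *AGO4* known for expression in growing tips, was low, at 1.3 to 4.6 RPM, so a step of 0.1 RPM weighs more in it than in the other members. It was at 1.9, 1.3 and 3.1 RPM in *ddm1*-Col and at 3.6, 4.6 and 4.6 RPM in *ddm1*-C24, without overlap. The difference of 0.93 (SE 0.30, adjusted p = 0.105) passed with the block (adjusted p = 0.0274) and without *ddm1*-Col replicate 3 (adjusted p = 0.0345). It did not pass in the blocked fit without *ddm1*-C24 replicate 2. In WT the accessions overlapped, with 1.4 to 2.6 RPM in WT-Col and 1.7 to 4.4 RPM in WT-C24.

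*NRPE1*, the largest subunit of RNA polymerase V, was at 21.5, 17.0 and 16.9 RPM in WT-Col and at 15.8, 13.0 and 13.4 RPM in *ddm1*-Col, without overlap. The difference was -0.38 (SE 0.19, adjusted p = 0.695), and it passed with the block (adjusted p = 0.0221) but not with RPM also rescaled. In C24 the difference was -0.28 and in F1 -0.25 (SE 0.22 and 0.13), and the ranges overlapped in both.

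*DRD1*, a remodeler of the complex that helps polymerase V onto DNA, was highest in WT-Col (8.9, 13.4 and 11.1 RPM) and lowest in *ddm1*-Col (7.3, 9.1 and 9.1 RPM), with a difference of -0.36 (SE 0.23, adjusted p = 0.954) and overlapping ranges. Replicate 1 was the lowest of its genotype in 8 of 8 genotypes.

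*SUVH9*, which binds methylated DNA and helps to place polymerase V, was the most abundant of the 10 per kilobase and varied least with genotype. Over the 24 libraries it ranged from 40.8 to 79.7 RPM, and replicate 1 (40.8 to 51.0 RPM) lay below replicates 2 and 3 (63.6 to 79.7 RPM) without overlap. The genotype held 6.04% of its sum of squares on the log2 scale and the replicate number 91.2%. For *AGO4* these shares were 11.9% and 78.0%, for *CLSY1* 65.1% and 26.0%, and for *RDR2* 64.1% and 28.0%. The median over all tested genes was 28.4% for genotype and 51.9% for replicate number. For *SUVH9* the effect of *ddm1* in C24 minus that in Col was -0.25 with the block (SE 0.12, adjusted p = 0.194). With RPM also rescaled it was -0.37 (SE 0.10) and passed (adjusted p = 0.0384).

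**Figure D4:**
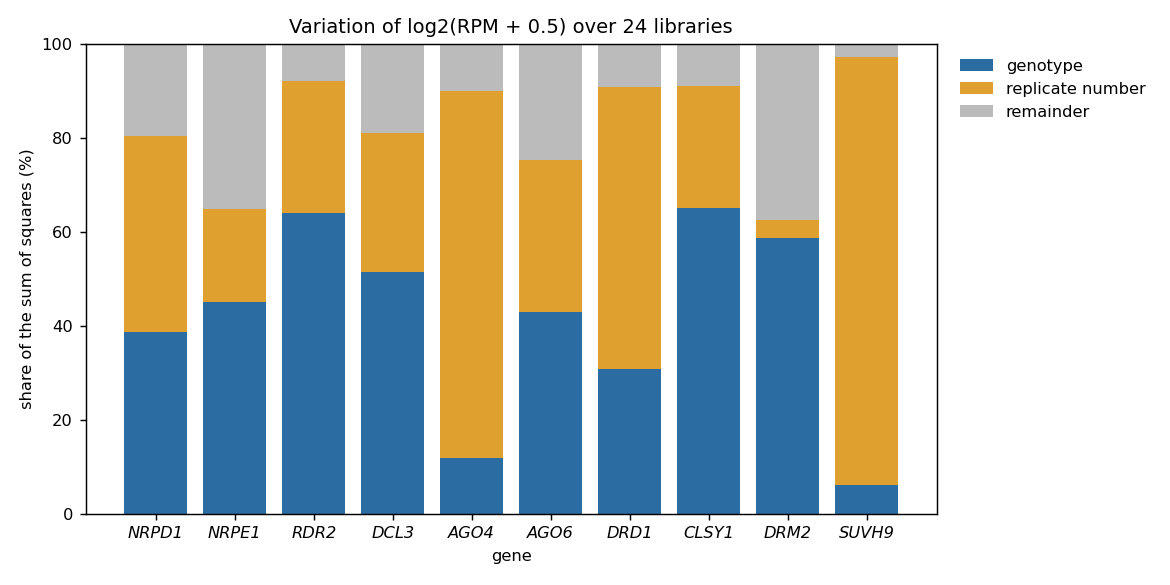
Share (%) of the sum of squares of log2(RPM + 0.5) over 24 libraries held by genotype (blue), by replicate number (yellow) and by the remainder (gray), 1 bar per gene. Genotype held 65.1% for *CLSY1* and 6.04% for *SUVH9*, and the replicate number held 91.2% for *SUVH9*.

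*DRM2*, the methyltransferase at the end of the pathway, had 24 values between 8.9 and 15.5 RPM, and genotype held 58.7% of its sum of squares. It was at 15.5, 11.6 and 13.7 RPM in WT-C24 and 8.9, 11.2 and 11.4 RPM in *ddm1*-C24, without overlap, a difference of -0.36 that did not pass (SE 0.20, adjusted p = 0.487). In WT-F1 the lowest, median and highest values were 12, 13 and 14.1 RPM and in *ddm1*-F1 9.2, 11.1 and 12.2 RPM, which overlapped in a narrow range. The difference of -0.23 (SE 0.10, adjusted p = 0.31) passed with the block (adjusted p = 0.023) and not with RPM also rescaled (adjusted p = 0.0791).

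Counted as a list, the 10 genes gave 0 calls for the effect of *ddm1* in Col, C24 or F1 in the main fit, without the block. In Col 0 of 10 were called without the block, where 8.04% of all genes were (1 of 10, *CLSY1*, had an unadjusted p under 0.05). There 8 of 10 differences were below 0 with a median of -0.27 against -0.10 over all tested genes. The share of all genes below 0 is not given here. The 8 of 10 depends on the scaling: with RPM rescaled by median ratios *AGO6* (0.09) and *DRM2* (0.05) moved above 0. With the block 4 of 10 fell (*CLSY1*, *DCL3*, *NRPE1* and *AGO4*), where 8.69% of all genes fell, and 2 of 10 (*CLSY1* and *DCL3*) with RPM rescaled as well, where 2.93% fell. In C24 0 of 10 were called (9.74% of all genes, 1 of 10 at an unadjusted p under 0.05), with a median of -0.17 against 0.03. In F1 0 of 10 were called (10.4% of all genes, 3 of 10 at an unadjusted p under 0.05), with a median of -0.06 against -0.03. With the block 3 of 10 passed in F1, *CLSY1* upward and *DCL3* and *DRM2* downward, where 25.0% of all genes passed. Every share of all genes, here and in the other counts of this text, is at the adjusted threshold. The share at an unadjusted p under 0.05 is not given here. Counts at an unadjusted p therefore cannot be set against the printed shares.

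**Figure D5:**
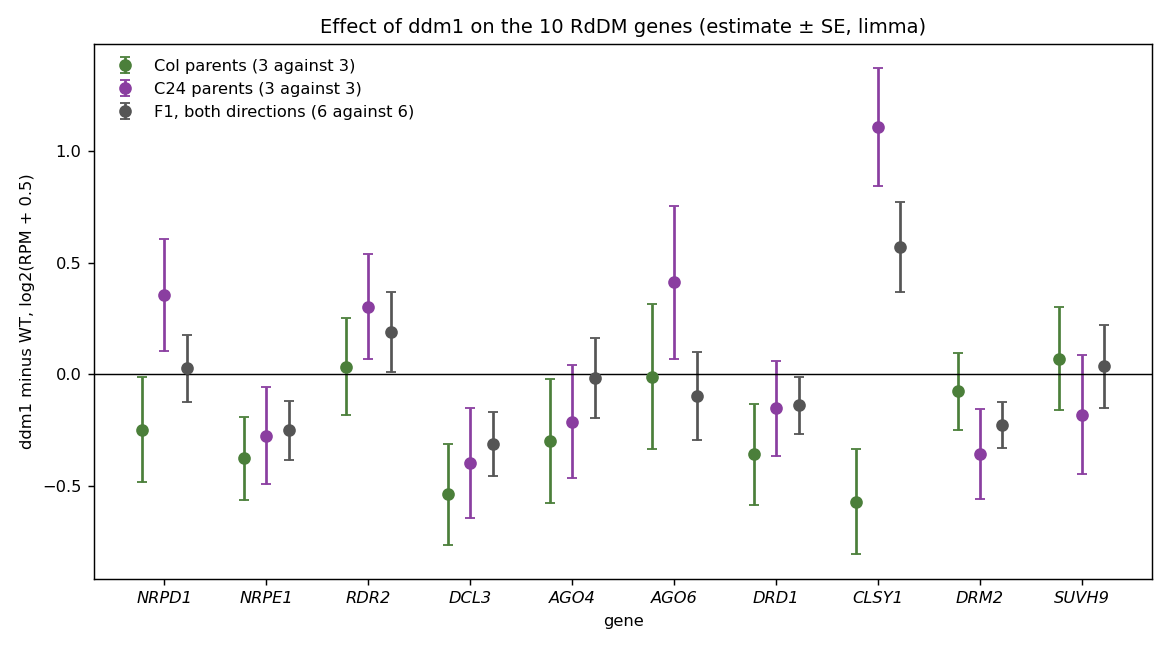
Difference between *ddm1* and WT on the log2(RPM + 0.5) scale for the 10 genes in Col (green), C24 (purple) and F1 (gray), as the limma estimate with its SE. *CLSY1* is at -0.57, 1.11 and 0.57, and the other 9 genes lie between -0.54 and 0.41.

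Hybrids were compared with the mid-parent value (MPV), the average of a Col and a C24 library with the same replicate number. In WT-F1 the differences from MPV ran from -0.29 (*CLSY1*, SE 0.26) to 0.06 (*AGO6*), and 0 of 10 were called (0.0672% of all genes were, and 0 of 10 had an unadjusted p under 0.05). In *ddm1*-F1 the differences ran from -0.30 (*AGO6*, SE 0.27) to 0.12 (*SUVH9*), and 0 of 10 were called (2.23% of all genes were, and 0 of 10 had an unadjusted p under 0.05). With the block 0 of 10 were called in either. The shares of all genes printed above are without the block and cannot be set against these blocked counts. In *ddm1*-F1 the block raised the number of genes called over the whole table. For WT-F1 the share with the block is not given here. The direction of the cross gave 0 calls among the 10 in WT (0.0224% of all genes called, differences -0.12 to 0.14) and 0 in *ddm1* (0% of all genes called, differences -0.22 to 0.30), with 0 of 10 at an unadjusted p under 0.05 in both.

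Of 27 other genes of the pathway 25 were tested, and *AGO9* and *DRM1* were below the minimum. In *ddm1*-Col 1 of 25 fell and 0 rose, where 8.04% of all tested genes were called (50 fell and 1746 rose). In C24 0 of 25 were called (9.74% of all genes, 3 of 25 at an unadjusted p under 0.05). In F1 3 of 25 fell and 0 rose, where 10.4% of all genes were called (263 fell and 2061 rose). *FDM2* (AT4G00380), of a family of RNA-binding proteins that act with IDN2 downstream of polymerase V, showed the largest change. It was at 6.9, 5.6 and 6.8 RPM in WT-Col and 1.2, 1.2 and 0.8 RPM in *ddm1*-Col, far apart (difference -2.15, SE 0.21, adjusted p = 0.000628), and fell by 1.44 in F1 (SE 0.15, adjusted p = 5.36e-06).

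In C24 *FDM2* was at 4.6, 3.8 and 3.6 RPM in WT and 2.4, 3.9 and 3.4 RPM in the libraries labelled *ddm1*-C24, with overlap, and the effect of *ddm1* differed between the accessions by 1.87 (SE 0.30, adjusted p = 0.00251). It was also 2.37-fold higher in *ddm1*-C24 than in *ddm1*-Col (adjusted p = 0.0196), which did not pass in the blocked fit without *ddm1*-C24 replicate 2 (adjusted p = 0.0599). Its paralog *FDM1* (AT1G15910) was higher in C24 than in Col, by 1.08 in WT (SE 0.16, adjusted p = 0.0295) and by 1.19 in *ddm1* (SE 0.17, adjusted p = 0.00388). How reads that fit both paralogs were counted is not given in the sources used here, and both values are uncertain to that extent.

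*MORC2* (AT4G36280), an ATPase of the MORC family, fell in F1 by 1.22 (SE 0.22, adjusted p = 0.00147). It was at 2.2 to 5.0 RPM in WT-F1 and 0.5 to 1.9 RPM in *ddm1*-F1, without overlap. In Col it was also lower without overlap, at 0.9 to 1.6 RPM in *ddm1* against 2.5 to 4.3 RPM in WT, and was not called. In C24 the ranges overlapped, with 1.7, 4.1 and 4.1 RPM in *ddm1* against 2.2, 2.7 and 5.0 RPM in WT. Its neighbour *MORC1* is a close paralog, so some of its reads are uncertain. Among the relatives of *CLSY1*, *CLSY2* (AT5G20420) fell in F1 by 0.65 (SE 0.12, adjusted p = 0.00137), from 2.7 to 3.4 RPM in WT-F1 to 1.5 to 2.1 RPM in *ddm1*-F1. In the parents *CLSY2* was also lower in *ddm1* without overlap, and was not called. It was at 1.1 to 1.7 against 2.1 to 3.0 RPM in Col and at 2.0 to 2.5 against 2.9 to 4.7 RPM in C24. *CLSY3* (AT1G05490), active mainly in ovules, was at 0.7 to 1.1 RPM in *ddm1*-Col and 2.1 to 2.6 RPM in *ddm1*-C24 (difference 1.06, SE 0.22, adjusted p = 0.0203), which did not pass in the blocked fit without *ddm1*-C24 replicate 2 either (adjusted p = 0.0802).

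The tested gene whose log2 level was most like that of a member over the 24 libraries was named for each. *CLSY1* was most like *CDKD1;1* (AT1G73690), a cyclin-dependent kinase gene, with a Pearson r of 0.901. *RDR2* was most like *RLP42* (AT3G25020, r = 0.923), *DCL3* like *INO80* (AT3G57300, r = 0.907), *NRPE1* like AT5G25520 (r = 0.905) and *NRPD1* like *BRL1* (AT1G55610, r = 0.829). *AGO4* was most like *ABCB6* (AT2G39480, r = 0.949), *AGO6* like *HK1* (AT2G17820, r = 0.899) and *DRM2* like *ATM* (AT3G48190, r = 0.836). *SUVH9* was most like AT5G01090 (r = 0.969) and *DRD1* like *Tic32-IVa* (AT4G23430, r = 0.906). Within the 10, *DCL3* and *NRPE1* had an r of 0.734 and *DRD1* and *SUVH9* one of 0.74. These are descriptions over libraries that share genotype and replicate number.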

How the data were processed

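RNA was sequenced from 24 libraries of whole 2-week-old seedlings. The authors aligned reads to TAIR10 with TopHat, used HTSeq for counts per gene, and deposited RPM values (reads scaled to the library total). HTSeq settings, strandedness and allele are not given in the sources used here. Every value is a multiple of 0.1 RPM and the 24 columns sum to 999819.3 to 1000187.1, so counts were not recovered and depth is unknown. The table held 0 columns of other samples. The 4 bisulfite samples were not analysed here.

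The 22329 of 28437 genes that reached 1 RPM in 3 or more libraries were tested on log2(RPM + 0.5), a scale that understates changes of low genes, with limma 3.58.1 (trend option, two-sided, R 4.3.3) and Benjamini-Hochberg adjustment over all of them, threshold 0.05, each comparison on its own libraries. The study used a count model, and RPM called for limma. MPV was the mean RPM of same-numbered parents, and each averages a pair of libraries, which the fit does not model. Code was tested on simulated data. Coordinates, exon lengths and sequences came from TAIR10.1 (RefSeq), where 28331 of 28437 loci and all 10 members matched. The start sequence of *CLSY1* is not reported here.

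Replicate numbers come from the labels. After genotype means were removed, the correlation of libraries with the same number averaged 0.757 (smallest 0.159, 84 pairs). That of others averaged -0.36 (168 pairs). Removing genotype means itself pushes this value below 0 when the first is high, so it is no separate evidence. By the first value the numbers pair the libraries, and each comparison was also run with the replicate block. *ddm1*-C24 replicate 2 had a mean r of 0.298 with number 2 and 0.659 with number 3. What the number stands for is unknown. Other alternatives were pseudocounts of 0.1 and 1, no filter, median-ratio rescaling, one fit of all libraries, and each library left out. The members and lists were chosen with earlier results of these data known. Text names all 10 members, *DDM1*, other pathway genes past the threshold (at most 4 per comparison by size) and the most similar gene of each member. Loci near *CLSY1* were chosen after their values were seen.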

Additional observations from a re-analysis of the deposited data

Results flagged for a closer look

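The effect of *ddm1* on *CLSY1* differed between the accessions by 1.68 on the log2(RPM + 0.5) scale (C24 minus Col, limma, adjusted p = 0.0151). All 3 *ddm1*-C24 libraries were above WT-C24 and all 3 *ddm1*-Col libraries below WT-Col. The effect on *NRPD1* differed by 0.60 with the replicate block (adjusted p = 0.0487), and without the block its adjusted p was 0.628. No library of a member stood apart from its group by Dixon's test in the groups of 6 hybrids.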

How the results depend on the processing

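Counts of the 10 members called moved as follows. With the replicate block they were 4 in Col, 3 in F1, 2 for the difference of the *ddm1* effect between C24 and Col, 1 for C24 against Col in WT and 3 for it in *ddm1*. With the block and median-ratio rescaling they were 2 in Col, 1 in C24, 2 in F1, 2 for that difference (*CLSY1* and *SUVH9*, no longer *NRPD1*), 1 in WT, 3 in *ddm1* and 1 for *ddm1*-F1 against MPV (*SUVH9*). Rescaling alone gave 1 in C24 and 1 in F1, no filter gave 1 in C24, and one fit of all libraries gave 1 in C24 and 1 for C24 against Col in WT, each *CLSY1* or *RDR2*. Alternatives chosen after seeing the data were one fit with block and rescaling (3 in Col, 6 in C24, 3 in F1, 2 for the difference, 2 in WT, 5 in *ddm1*, 1 for *ddm1*-F1 against MPV) and the block without *ddm1*-C24 replicate 2 (2 for C24 against Col in *ddm1*). The share of all genes called is not given here for these alternatives. Nor is it given for the block with rescaling outside Col, for rescaling alone, for no filter or for one fit of all libraries. Counts without that share are not read as a result about the members. With each library left out the counts ranged from 0 to 1 in C24, 0 to 1 for the difference and 0 to 2 for C24 against Col in *ddm1*. Beyond the calls named, the block changed no other call of a member. The other settings left these counts within 1.5 times. Over all tested genes the block raised calls from 1796 to 4175 in Col, from 2324 to 5590 in F1, from 1129 to 2801 for the difference, from 849 to 1523 in WT, from 2980 to 7144 in *ddm1* and from 497 to 4438 for *ddm1*-F1 against MPV. In Col 2235 of the 4175 rose and 1940 fell, and with rescaling as well 2545 rose and 650 fell. Of 424 values of single members, over the 26 pairs of member and comparison called under any setting that kept all libraries or left out *ddm1*-C24 replicate 2 with the block, 365 kept direction and side of the threshold, 49 moved past it, 5 moved below it and 5 changed sign, the last all of *SUVH9* and none called. All 5 came from leaving out a library, where the values ranged from -0.11 to 0.23 for the *ddm1* effect in Col, from -0.362 to 0.0478 for that in C24, from -0.342 to 0.0479 for C24 against Col in *ddm1* and from -0.0704 to 0.219 for *ddm1*-F1 against MPV. Outside these pairs other values near 0, none called, changed sign too: with rescaling *DRM2* in Col went from -0.08 to 0.05 and *AGO6* in Col from -0.01 to 0.09, and *NRPD1* in F1 went from 0.03 to -0.03 without WT-C24xCol replicate 2. The cause of these shifts was not tested, except that fewer libraries widen the error. Depth is unknown, so its limits could not be computed, and a step of 0.1 RPM bounds the low members.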

Other observations

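*DRM1* (AT5G15380), the paralog of *DRM2*, was below the minimum and was not tested. It was at 0.7, 1.2 and 0.3 RPM in the libraries labelled *ddm1*-C24 and at 0 to 0.1 RPM in all others. *CLSY4* (AT3G24340) was at 2.4 RPM in *ddm1*-C24 replicate 3 and at 0.3 to 1.3 RPM elsewhere.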
